A study of Mus musculus with 12 samples.

Results

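Astrocyte reactivity was examined through 10 genes picked by symbol from the 20614 genes of the expression table: Gfap, Vim, C3, C4b, Serpina3n, A2m, Lcn2, Cd44, S100a10 and Ch25h. All 10 were found. RNA came from astrocytes of male mice aged 12 to 14 months (mean 13.5 months for the series), and it was sequenced in 3 Cd38+/+, 3 Cd38+/- and 6 Cd38-/- libraries. The mice were bred on C57BL/6J with no treatment named, the mutant mice carried a constitutive disruption of Cd38 in all cells, and the cells were taken from dissected striatum, thalamus and substantia nigra by dissociation with papain, removal of endothelial cells, myelin and microglia on magnetic beads, and capture with antibody to the astrocyte surface antigen ACSA-2. The comparison asks whether loss of Cd38, which encodes an enzyme that consumes NAD, goes with a whole reactivity programme or with a few of its genes.

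Astrocytes respond to injury, inflammation and ageing by a graded change of state called reactivity. Its textbook signs are more intermediate filament protein (glial fibrillary acidic protein and vimentin), secreted complement components and acute-phase proteins, and surface molecules that bind the matrix. Signals of the IL-6 family reach many of these genes through the receptor subunit gp130 and the transcription factor STAT3, and inflammatory cytokines reach others through NF-kappaB. Sets of genes called pan-reactive, A1 (after inflammation) and A2 (after ischaemia) are widely used to sort such states.

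Levels are in TPM, the share of transcripts that belong to a gene after correction for their length, and each fold change is a log2 difference of TPM + 1. A gene was called when its Storey q from limma, fitted over all genes with a mean above 5 TPM in a compared genotype, was under 0.05 and the change was at least 1.2-fold. The deposited values keep no read depth, so no counting interval is given and a value of 0 sets no upper limit. The design text gives 3, 3 and 6 mice for the genotypes, which matches the libraries, and the p-values measure the spread between these libraries.

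The targeted gene followed the labels. Cd38 stood at 149, 120 and 105 TPM in the Cd38+/+ libraries, at 90.8, 90.7 and 90.4 TPM in the Cd38+/- libraries and between 8.54 and 21.9 TPM in the Cd38-/- libraries, so no library overlapped another genotype. The value sums reads over the whole gene, including any part that the disruption leaves. All 13 astrocyte markers were above 0 in every library, with a summed level of 14470 to 23212 TPM. Other cells were also present. Oligodendrocyte markers summed to between 1297 and 17802 TPM, led by the myelin gene Mbp, endothelial markers to between 400.4 and 2176 TPM, led by Ly6c1, and ependymal and choroid plexus markers without Ttr to between 1396 and 3010 TPM, led by Ccdc153. Neuron markers summed to at most 114 TPM. Of the microglial markers, 10 summed to between 13.03 and 46.6 TPM in Cd38+/+, 42.8 and 56.6 TPM in Cd38+/- and 32.2 and 93.1 TPM in Cd38-/- libraries, and Tmem119, Cx3cr1 and Siglech were listed at 0 in all 3 Cd38+/+ libraries. The number of genes above 0 was 13160 to 13516 in Cd38+/+, 16160 to 16327 in Cd38+/- and 15920 to 17906 in Cd38-/- libraries. Cd38+/+ replicate 3 stood apart from the other Cd38+/+ libraries in its markers: its endothelial sum (448 TPM) and its oligodendrocyte sum (1297 TPM) were the lowest of that genotype, and its ependymal sum (2865 TPM) was the highest. Its astrocyte sum (14470 TPM) was the lowest of all libraries. In bulk RNA, more cells of a type and more RNA per cell cannot be told apart.

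Gfap, C4b and A2m rose in Cd38-/- astrocytes, and the other tested reactivity genes did not pass the test. Of the 10 genes, 9 passed the filter on low values and 3 were called, all higher, where 8.28% of the 11722 genes tested were called and 6.42% were called higher. The 10 genes were chosen with earlier results of these data known, so the shares given here are descriptive and test no enrichment. Lcn2 was too low to be tested, and Ch25h passed the filter only through its mean in Cd38+/+. Of the 9 tested genes 5 had a fold change above 0, against 64.3% of all genes tested, and their median log2 fold change was 0.36 beside 0.15 for all genes. By an unadjusted p under 0.05, 6 of the 9 passed, beside 23.6% of all genes: Gfap, C4b, A2m and C3 were higher, and Serpina3n and Ch25h were lower. The 3 called genes were those whose libraries did not overlap between the genotypes, beside 11.8% of all genes. The median of all genes depends on the scaling of the libraries: median-ratio scaling moved it to 0.03, and it was -0.07 once trends on transcript length and GC content were removed. The direction of Gfap, C4b and A2m relative to it held under each of the 4 scalings tried. With library quality weights the count was 0, and with each library centred on its astrocyte markers it was 1. It also rested on single libraries: it was 0 without Cd38-/- replicate 2, 1 without replicate 1, 5 or 6, and 7 without Cd38+/+ replicate 3, when Vim and C3 were also called higher and Serpina3n and Ch25h lower and 26.5% of all genes were called.

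**Figure D1:**
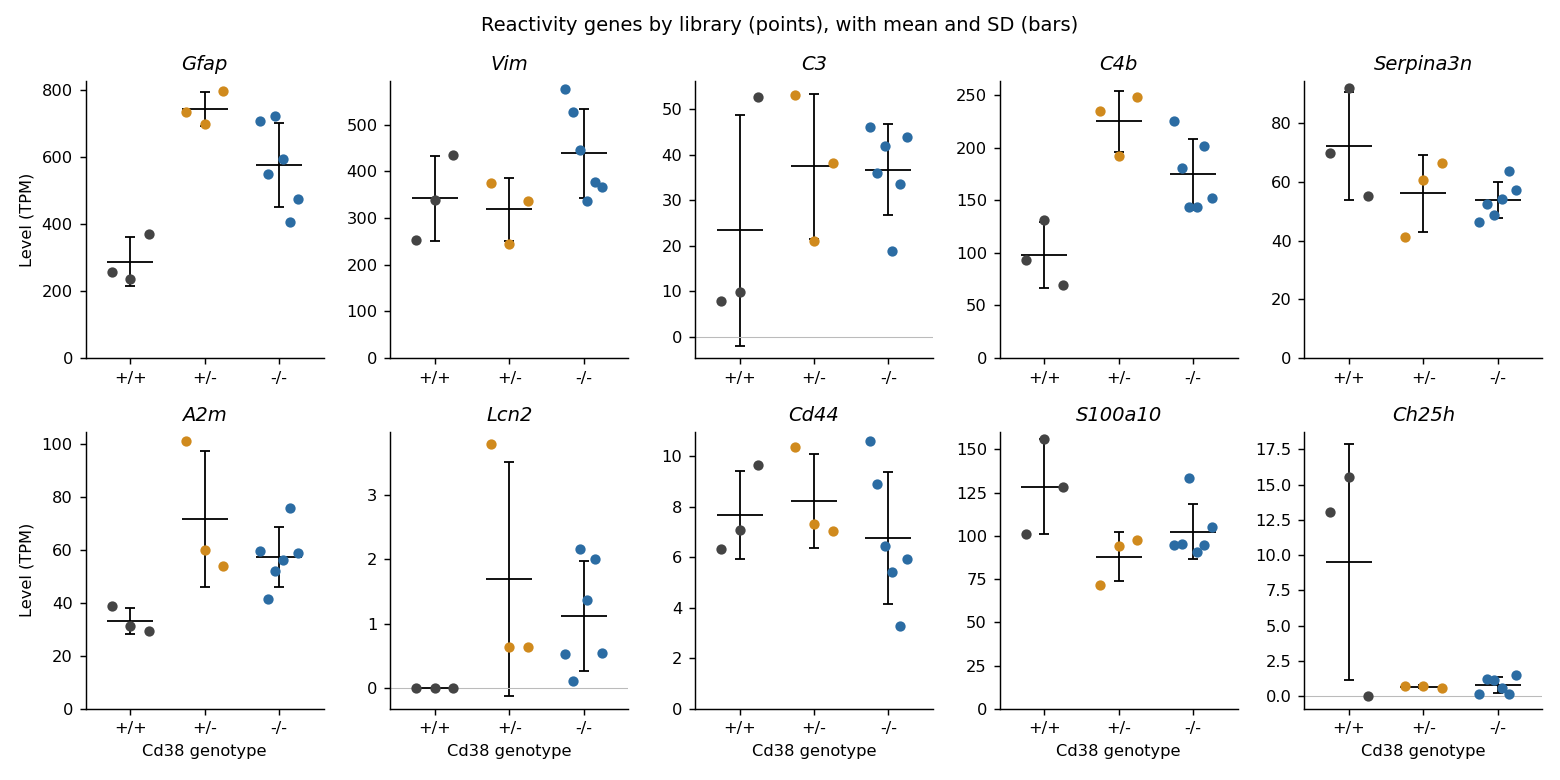
Level of each of the 10 genes in TPM (y axis, linear, from 0) in the Cd38+/+ (3), Cd38+/- (3) and Cd38-/- (6) libraries (x axis); points are libraries, the horizontal bar is the mean and the whisker the SD. Gfap, C4b and A2m of every mutant library sit above all Cd38+/+ libraries, and C3 and Ch25h are split within Cd38+/+.

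Gfap encodes the main intermediate filament protein of astrocytes (ENSMUSG00000020932, GRCm38 chromosome 11, 102887336 to 102900912, minus strand). It stood at 257, 236 and 371 TPM in Cd38+/+ libraries. In Cd38+/- libraries it was 734, 698 and 798 TPM, and in Cd38-/- libraries it ran from 406 to 723 TPM with a median of 572 TPM. All 9 mutant libraries were above the highest Cd38+/+ library. The means were 288 ± 72.5 TPM (SD, n = 3), 743 ± 50.8 TPM (SD, n = 3) and 576 ± 125 TPM (SD, n = 6), which moved Gfap from rank 499 among 20581 gene symbols in Cd38+/+ to rank 132 in Cd38+/- and rank 180 in Cd38-/- astrocytes. In Cd38-/- the log2 fold change was 1.00 ± 0.20 (SE, limma q = 0.0175), 0.84 above the median of all genes. An exact two-sided permutation test over these libraries gave p = 0.0238, the smallest that 6 against 3 can give. When each library was centred on its astrocyte markers the fold change was 0.97 with q = 0.0634 and Gfap was no longer called, and without Cd38-/- replicate 2 it was 1.00 with q = 0.0532.

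The promoters of 7 of the 10 genes were listed by RefSeq on GRCm38.p6 (300 bases each, from 250 before to 50 after the gene start), those of Gfap, Vim, C3, Serpina3n, Lcn2, Cd44 and Ch25h. They were searched on both strands for TTCNNNGAA (bound by STAT factors), TGANTCA (AP-1) and the consensus NF-kappaB motif of 10 bases, for the classic regulators of these genes. A STAT match was found in Gfap alone, NF-kappaB matches in Vim alone, at a pair of places, and no AP-1 match in any of the 7. The form of the NF-kappaB motif was settled after matches of another form had been seen. Serpina3n held a match of that other form only, so the restriction to Vim depends on the form chosen. Among 32851 mouse promoters of that length, 8.30% held the STAT motif, 7.81% the AP-1 motif and 5.81% the NF-kappaB motif. The 3 matches are shown with 20 bases on each side, on the strand of the gene, with the match in capitals, because they belong to the pair of filament genes, of which Gfap was called and Vim was not.
Gfap, chr11:102897174-102897222 (minus strand): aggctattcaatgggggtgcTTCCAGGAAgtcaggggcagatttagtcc
Vim, first match, chr2:13574068-13574117 (plus strand): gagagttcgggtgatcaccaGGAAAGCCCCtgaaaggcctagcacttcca
Vim, other match, chr2:13574150-13574199 (plus strand): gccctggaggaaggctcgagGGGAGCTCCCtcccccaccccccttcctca
The match starts 2 bases before the start that RefSeq lists for Gfap, and the others 223 and 141 bases before that for Vim. The GENCODE bounds given for each gene take in its outermost transcripts, so these RefSeq starts lie 3712 bases inside the bounds of Gfap and 384 bases inside those of Vim. Whether any factor bound there was not measured.

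Vim encodes vimentin, the filament partner of glial fibrillary acidic protein, which ependymal and endothelial cells also make. It was 253, 339 and 435 TPM in Cd38+/+ libraries, 376, 244 and 336 TPM in Cd38+/- libraries, and 338 to 577 TPM (median 411 TPM) in Cd38-/- libraries. The genotypes overlapped. Cd38-/- differed from Cd38+/+ by 0.36 ± 0.20 on the log2 scale (SE, limma q = 0.167), and only 3 of 6 Cd38-/- libraries were above all Cd38+/+ libraries. The ependymal gene Foxj1 was at 234 and 226 TPM in the 2 Cd38-/- libraries with the highest Vim, at 201 TPM in the Cd38+/+ library with the highest Vim (replicate 3) and at 69.9 TPM in the one with the lowest. But Foxj1 was at 119 TPM in Cd38-/- replicate 3 (Vim 445 TPM) and at 176 TPM in replicate 6 (Vim 368 TPM). Among Cd38-/- libraries the ependymal genes Ccdc153 and Tmem212 were highest in replicate 3 (1493 and 1289 TPM). In replicate 6 they stood at 1443 and 1233 TPM. Within Cd38+/+ both were highest in replicate 3 (1517 and 1090 TPM). The part of ependymal cells in the Vim values was not tested. Without Cd38+/+ replicate 3 the fold change was 0.55 with q = 0.0437.

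Because Gfap and Vim are measured in the same library, their ratio needs no scaling between libraries. Gfap over Vim was 0.70 to 1.01 in Cd38+/+, 1.95 to 2.86 in Cd38+/- and 1.04 to 1.76 in Cd38-/- libraries, so the 3 genotypes did not overlap. For Cd38-/- against Cd38+/+ the exact permutation p was 0.0238, where the ratio to Vim did not overlap for 8.73% of all genes tested. For Cd38-/- against Cd38+/- the exact permutation p was also 0.0238, with 25.6% of all genes not overlapping in that ratio. For Cd38+/- against Cd38+/+ it was 0.1, the smallest that 3 against 3 can give, with 17.7% of genes not overlapping. The ratio shows an unequal change and not which of the pair moved. Against Aldh1l1, an astrocyte enzyme of folate metabolism, Gfap was 0.71 to 1.35 in Cd38+/+, 1.84 to 2.25 in Cd38+/- and 1.10 to 2.61 in Cd38-/- libraries. Here Cd38-/- and Cd38+/+ overlapped, with an exact permutation p of 0.0476, where the ratio to Aldh1l1 did not overlap for 6.94% of all genes tested.

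**Figure D2:**
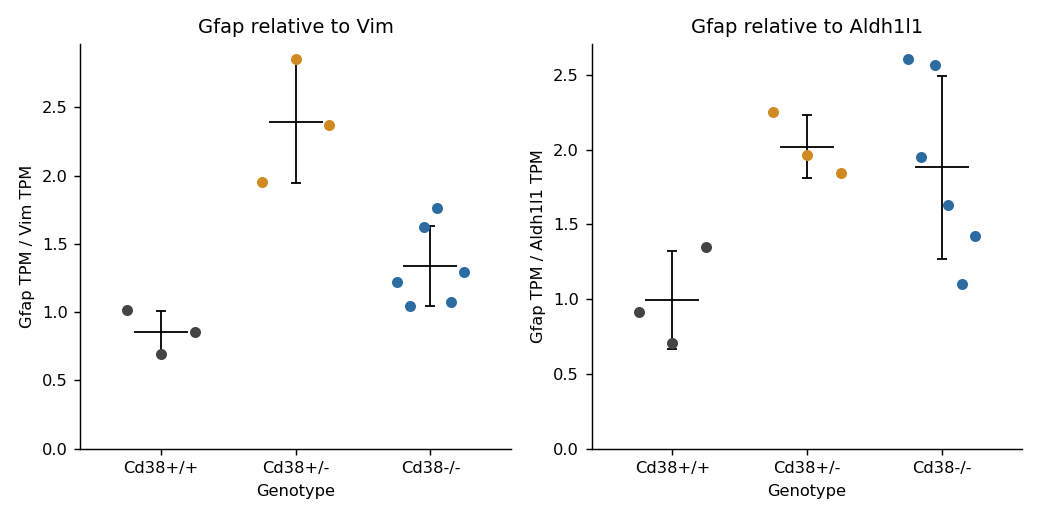
Ratio of Gfap to Vim (left) and of Gfap to Aldh1l1 (right) within each library, both as TPM over TPM on a linear y axis from 0, by genotype (x axis); points are libraries, horizontal bars means and whiskers SD. The ratio to Vim separates the 3 genotypes (means 0.85, 2.39 and 1.34), whereas the ratio to Aldh1l1 overlaps between Cd38-/- and Cd38+/+.

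Of the complement genes, C4b rose and C3 did not pass the test. C4b, the mouse C4 of the classical pathway (ENSMUSG00000073418, GRCm38 chromosome 17, 34728380 to 34743882, minus strand), was 92.9, 131 and 69.0 TPM in Cd38+/+ libraries. It was 234, 192 and 248 TPM in Cd38+/- libraries and 144 to 226 TPM (median 166 TPM) in Cd38-/- libraries. Every mutant library was above every Cd38+/+ library. The log2 fold change in Cd38-/- was 0.86 ± 0.21 (SE, limma q = 0.0281; exact permutation p = 0.0238, the smallest possible). Of the windows of 100 bases along its longest transcript, 16.5% also occur in the neighbouring C4a, so reads can be split between the pair. C4a was not analysed here. C4b was no longer called when Cd38-/- replicate 1, 2, 5 or 6 was left out (q = 0.0543 to 0.0733).

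C3, the hub of all complement pathways and a common marker of the A1 state, was split within the wild type. Cd38+/+ replicates 1 and 2 were at 7.83 and 9.77 TPM, and replicate 3 was at 52.6 TPM, close to the highest mutant library. Cd38+/- libraries were at 53.0, 21.1 and 38.1 TPM and Cd38-/- libraries between 18.8 and 46.0 TPM (median 38.9 TPM). All 9 mutant libraries were above the 2 low Cd38+/+ libraries, and none of the Cd38-/- libraries was above replicate 3. Its log2 fold change in Cd38-/- was 1.08 ± 0.49 (SE, limma q = 0.117), the highest of the 9 tested genes, with an error exceeded only by that of Ch25h. Without Cd38+/+ replicate 3 it was 1.90 with q = 0.00233.

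Of the protease inhibitors, A2m rose and Serpina3n did not pass the test. A2m, which encodes the broad protease trap alpha-2-macroglobulin (ENSMUSG00000030111, GRCm38 chromosome 6, 121635376 to 121679227, plus strand), was 38.7, 31.3 and 29.5 TPM in Cd38+/+ libraries. It was 101, 60.1 and 54.0 TPM in Cd38+/- libraries and 41.6 to 75.9 TPM (median 57.6 TPM) in Cd38-/- libraries, again with no overlap between mutants and wild type. The log2 fold change in Cd38-/- was 0.76 ± 0.19 (SE, limma q = 0.0308; exact permutation p = 0.0238, the smallest possible). With the trends on transcript length and GC content removed it was 0.37 with q = 0.140. A2m had the smallest margin of the called genes: its lowest Cd38-/- library, at 41.6 TPM, lay next to the highest Cd38+/+ library, at 38.7 TPM, and it was no longer called when Cd38-/- replicate 1, 2, 5 or 6 was left out (q = 0.0545 to 0.0743).

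Serpina3n, a secreted serine protease inhibitor of the acute phase and one of the most used markers of reactive astrocytes, had its highest value in the wild type. Cd38+/+ libraries were at 69.7, 91.8 and 55.2 TPM, Cd38+/- libraries at 41.3, 60.7 and 66.4 TPM, and Cd38-/- libraries at 46.4 to 63.7 TPM (median 53.3 TPM). The genotypes overlapped, and 4 of 6 Cd38-/- libraries were below every Cd38+/+ library. Its log2 fold change in Cd38-/- was -0.40 ± 0.18 (SE, limma q = 0.113). It passed the threshold on the lower side without Cd38+/+ replicate 3 (-0.57, q = 0.0210) and with the length and GC trends removed (-0.69, q = 0.0331). In no alternative was it called higher.

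Lcn2, which encodes the iron-siderophore carrier lipocalin 2 and is strongly induced after systemic inflammation, was barely expressed. It was listed at 0 in all 3 Cd38+/+ libraries, at 3.79, 0.64 and 0.64 TPM in Cd38+/- libraries and at 0.10 to 2.16 TPM (median 0.95 TPM) in Cd38-/- libraries. It was thus above 0 in all 9 mutant libraries and in no Cd38+/+ library. With no mean above 5 TPM it did not pass the filter on low values, and no fold is given against a group at 0. Without that filter limma gave it q = 0.0521 in Cd38-/- and q = 0.132 in Cd38+/- against Cd38+/+, and it was not called. The exact permutation p for Cd38-/- was 0.0238, the smallest possible. Cd38+/+ libraries listed fewer genes above 0 in all: of 1692 genes that were above 0 in every mutant library with a mean within 2-fold of that of Lcn2 (1.31 TPM over 9 libraries), 273 (16.1%) were listed at 0 in all 3 Cd38+/+ libraries. The part of this in the Lcn2 values was not tested.

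Cd44, the receptor for hyaluronan and osteopontin, was low and overlapped between all genotypes. It was 6.32, 7.08 and 9.66 TPM in Cd38+/+, 10.4, 7.31 and 7.03 TPM in Cd38+/- and 3.26 to 10.6 TPM (median 6.19 TPM) in Cd38-/- libraries. The log2 fold change in Cd38-/- was -0.22 ± 0.37 (SE, limma q = 0.426), and its Cd38-/- libraries spread 3.25-fold from lowest to highest, against 1.78-fold for Gfap.

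S100a10, a subunit of the annexin A2 complex and a marker of the A2 state, had its higher values in the wild type. Cd38+/+ libraries were at 101, 156 and 128 TPM and Cd38+/- libraries, all lower, at 71.5, 94.3 and 97.6 TPM. Cd38-/- libraries ran from 90.4 to 133 TPM (median 95.3 TPM), with 4 of 6 below every Cd38+/+ library. The log2 fold change in Cd38-/- was -0.32 ± 0.17 (SE, limma q = 0.154), and with the length and GC trends removed it was -0.52 with q = 0.0482.

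Ch25h makes the oxysterol 25-hydroxycholesterol and is induced by interferon. It was 13.03 and 15.5 TPM in Cd38+/+ replicates 1 and 2 and listed at 0 in replicate 3. No mutant library exceeded 1.50 TPM: Cd38+/- libraries were at 0.70, 0.74 and 0.56 TPM and Cd38-/- libraries at 0.16 to 1.50 TPM (median 0.845 TPM). Ch25h passed the filter on low values only through its Cd38+/+ mean of 9.52 TPM, against 0.67 TPM in Cd38+/- and 0.79 TPM in Cd38-/-. The filter thus favoured a lower value in the mutants, and the direction of these tests is no support. The Cd38-/- fold change was -1.85 ± 0.81 on the log2 scale (SE, limma q = 0.109), and it was -3.15 with q = 0.00127 without replicate 3 and -2.56 with q = 0.0241 after quantile normalization. Replicates 1 and 2 also had the highest summed dissociation-response genes (754 and 758 TPM, against 383 TPM in replicate 3 and 247 to 716 TPM in the mutants) and more endothelial signal than replicate 3 (2176 and 1176 against 448 TPM), although the mutants ranged from 400.4 to 1425 TPM. The part of either in the Ch25h values was not tested.

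**Figure D3:**
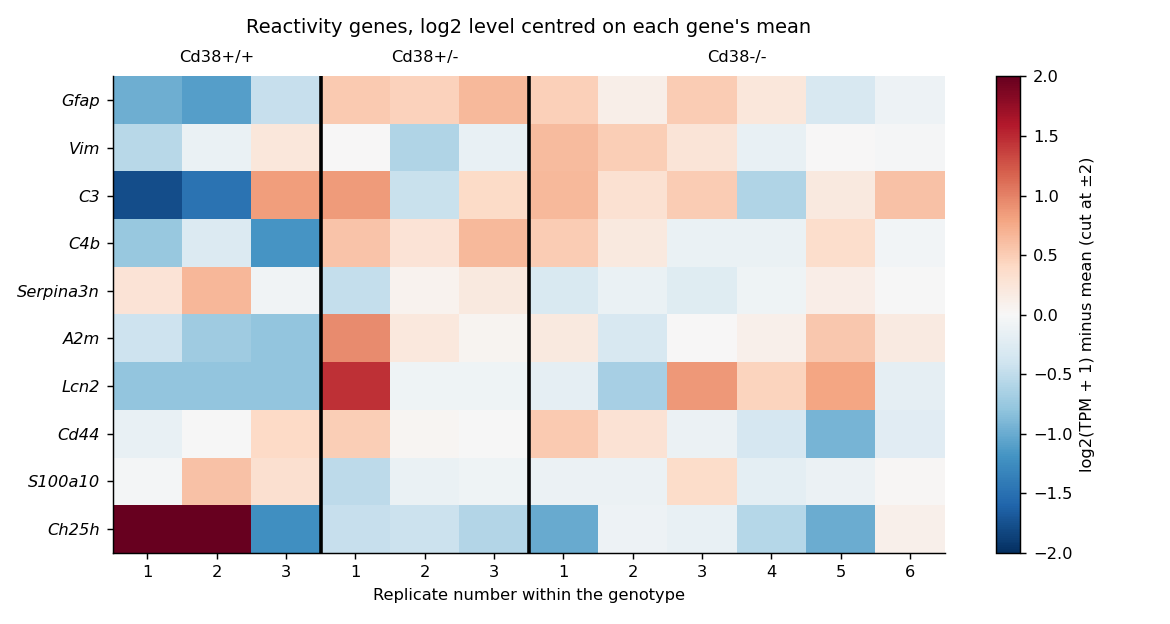
Level of the 10 genes (rows) in the 12 libraries (columns, replicate number within each genotype) as log2(TPM + 1) minus the mean of the gene over all libraries, red above and blue below it, with the colour scale ending at -2 and 2. Gfap, C4b and A2m are blue in the Cd38+/+ libraries, Serpina3n, S100a10 and Ch25h lean the other way, and C3 and Ch25h change colour at Cd38+/+ replicate 3.

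Cd38+/- astrocytes had levels of Gfap, C4b and A2m above all wild-type libraries too, but none of the genes tested was called in that comparison. limma called 0 of the 9 tested reactivity genes, where 0 (0%) of 11763 genes were called. An unadjusted p under 0.05 was found for 4 of the 9 (Gfap, C4b and A2m higher, S100a10 lower), beside 13.5% of all genes. Even Cd38 itself, the disrupted gene, was not called (-0.44 ± 0.18, SE, limma q = 0.226), although its libraries did not overlap. The log2 fold change was 1.39 ± 0.18 for Gfap (SE, q = 0.158). It was 1.23 ± 0.24 for C4b (SE, q = 0.158) and 1.04 ± 0.28 for A2m (SE, q = 0.177). For C3 it was 1.07 ± 0.66 (SE, q = 0.312) and for S100a10 -0.53 ± 0.22 (SE, q = 0.224). With each library centred on its astrocyte markers, Gfap was 1.07, C4b 0.91 and A2m 0.72. Of the 13 astrocyte markers 11 were above 0, with a median of 0.32 beside 0.18 for all genes. None of them was called, and 5 had an unadjusted p under 0.05. Gfap, C4b and A2m were higher and S100a10 was lower without overlap, so 4 of 9 tested genes did not overlap between these genotypes, beside 22.5% of all genes tested. The exact permutation p of each was 0.1, the smallest that 3 against 3 can give. Vim (-0.09 ± 0.23, SE), Serpina3n (-0.36 ± 0.27, SE) and Ch25h (-1.88 ± 1.11, SE) overlapped. So did Cd44 (0.09 ± 0.44, SE), whose sign turned under 6 of the 15 settings other than leaving out a library, among them all 4 scalings. Without Cd38+/+ replicate 3, Gfap was called (1.59, q = 0.0388), when 0.0847% of all genes were. The Cd38+/- and Cd38-/- comparisons share the 3 Cd38+/+ libraries and are not independent of each other.

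Between the mutant genotypes no reactivity gene was called, where 0.0346% of 11563 genes were, and 3 of the 8 tested genes had an unadjusted p under 0.05 beside 11.2% of all genes. Gfap was -0.40 ± 0.17 in Cd38-/- against Cd38+/- (log2, SE, limma q = 0.305). C4b was -0.38 ± 0.16 (SE, limma q = 0.300). Vim was 0.45 ± 0.19 (SE, limma q = 0.298) and passed the threshold when the libraries were centred on their astrocyte markers (0.75, q = 0.0372). The same centring brought Gfap to -0.10 and C4b to -0.08. Of the 13 astrocyte markers 1 had a fold change above 0 here. None of them was called, and 6 had an unadjusted p under 0.05. None of the 10 genes separated these genotypes without overlap, beside 5.73% of all genes tested. For Gfap and for C4b, 4 of 6 Cd38-/- libraries were below all 3 Cd38+/- libraries.

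**Figure D4:**
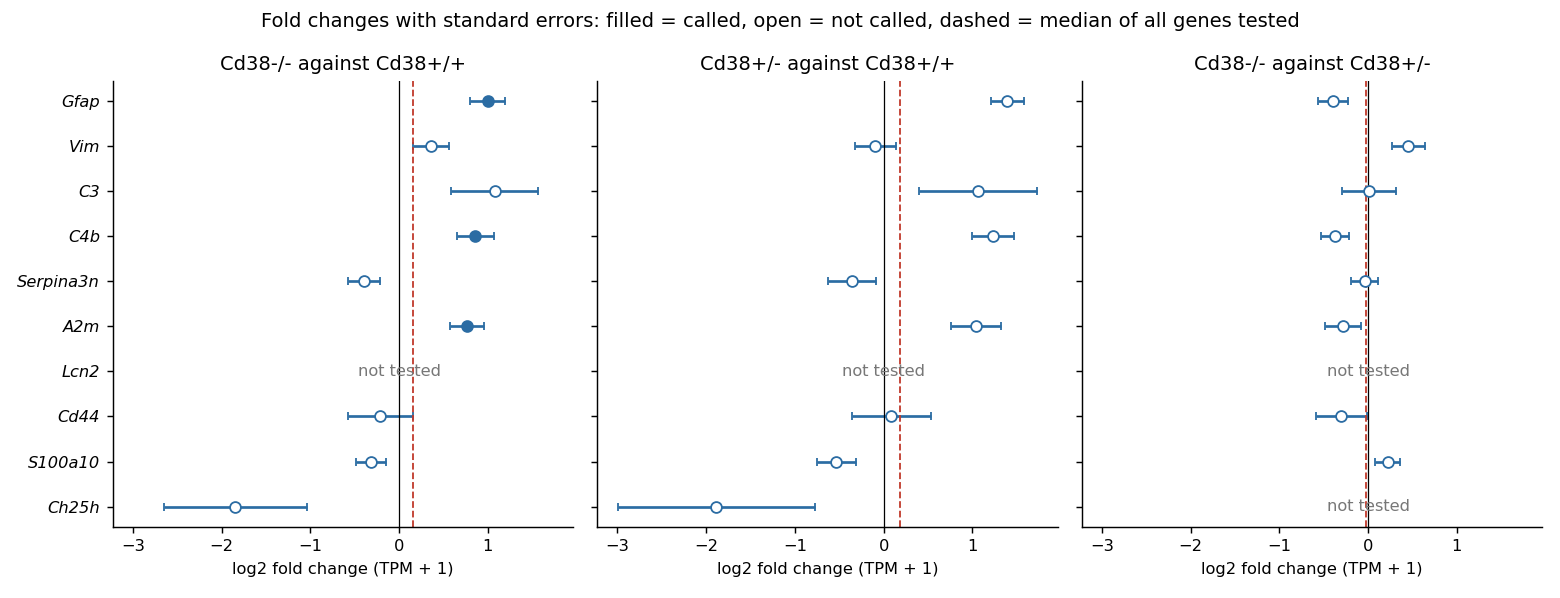
Log2 fold change of TPM + 1 (x axis) with its standard error for each gene (rows) in Cd38-/- against Cd38+/+ (left), Cd38+/- against Cd38+/+ (middle) and Cd38-/- against Cd38+/- (right); filled points were called, open points were not, and the dashed line is the median of all genes tested (0.15, 0.18 and -0.02). Only Gfap, C4b and A2m in the left panel are filled, and Ch25h has the widest error.

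The genes did not vary as a block among the 6 Cd38-/- libraries. Replicate 1 had the highest value for Vim, C3, C4b and Cd44 and the lowest for Serpina3n and Ch25h, replicate 5 the highest for Serpina3n and A2m and the lowest for Gfap and Cd44, and replicate 4 the lowest for 4 genes (Vim, C3, C4b and S100a10). No library was highest for more than 4 of the 10. In weight the set was mostly filament: Gfap and Vim made up 56.5% to 70.1% of the summed TPM of the 10 genes in Cd38+/+, 68.3% to 68.9% in Cd38+/- and 62.2% to 73.1% in Cd38-/- libraries. Gfap alone was 23.2% to 32.2% of that sum in Cd38+/+, 45.1% to 50.6% in Cd38+/- and 32.3% to 45.7% in Cd38-/- libraries.

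Among the 11713 other genes tested in Cd38-/- against Cd38+/+, the 5 nearest to Gfap over the 12 libraries (root mean square difference of centred log2 values) were Trim13 (0.25), B3galt1 (0.26), Pot1a (0.27), Mier2 (0.27) and Sgtb (0.28). None of them is a reactivity gene. C4b came at rank 636 and A2m at rank 868 by this measure, while Vim was at rank 4088, C3 at rank 5878, S100a10 at rank 9094 and Serpina3n at rank 9677. The points share their libraries, so the ranks are descriptive.

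The wider reactivity sets were examined by name. Of the 20 tested genes of the pan-reactive, A1 and A2 lists other than the 10, 3 (15.0%) were called in Cd38-/- against Cd38+/+, beside 8.28% of all genes. Of the 8 other pan-reactive genes 6 were tested and 2 rose in Cd38-/-: S1pr3, a sphingosine-1-phosphate receptor (26.8 ± 3.13 TPM in Cd38+/+ and 48.3 ± 10.8 TPM in Cd38-/-, SD, limma q = 0.0326), and Cp, the ferroxidase ceruloplasmin (25.2 ± 10.1 and 48.6 ± 10.6 TPM, SD, limma q = 0.0395). Their log2 fold changes were 0.80 and 0.97. The other 4 tested genes did not pass. Of the 6, 5 had a fold change above 0, and their median was 0.39 beside 0.15 for all genes. The exception was Hspb1, at 290 ± 126 TPM in Cd38+/+ and 150 ± 53.7 TPM in Cd38-/- libraries (SD, log2 fold change -0.94, limma q = 0.0741). In Cd38+/- against Cd38+/+ the fold change of Hspb1 was -1.50 (limma q = 0.176).

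Of the 12 A1 genes 11 were tested, none was called higher and 1 fell: Psmb8, an immunoproteasome subunit, was 66.1 ± 10.2 TPM in Cd38+/+ and 42.9 ± 7.44 TPM in Cd38-/- libraries (SD, log2 fold change -0.62, limma q = 0.0418). A share of 1 in 11 is near the 8.28% of all genes called. The median of the 11 genes was -0.17, on the other side of 0 from that of all genes. Of the 11 other A2 genes only 3 were abundant enough to be tested. limma called 0 of them, and 0 had an unadjusted p under 0.05; those with the smallest q were Tm4sf1 (0.35, q = 0.167) and Cd109 (0.62, q = 0.179). The median of the 3 genes was 0.35.

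**Figure D5:**
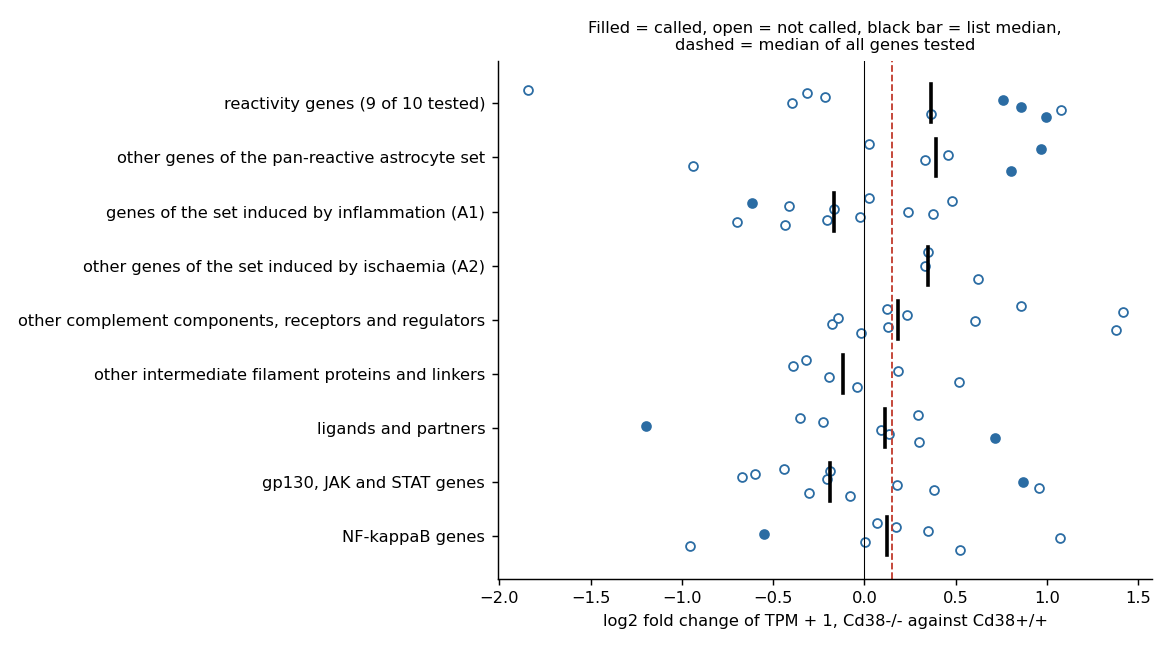
Log2 fold change of TPM + 1 in Cd38-/- against Cd38+/+ (x axis) of each tested gene in 9 lists (rows); filled points were called, open points were not, the black bar is the list median and the dashed line the median of all genes tested (0.15). Called genes are few in each list and lie on both sides of 0, with 3 called among the reactivity genes.

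Of 24 tested genes whose products act with the 10 proteins, 2 (8.33%) were called in Cd38-/- against Cd38+/+, a share near the 8.28% of all genes. Among 10 tested complement components, receptors and regulators limma called 0, and 2 had an unadjusted p under 0.05. The factor B gene Cfb was 2.20 ± 1.93 TPM in Cd38+/+ and 6.56 ± 1.80 TPM in Cd38-/- libraries (SD, log2 fold change 1.38, q = 0.0546), and C1qa, which is also a microglial marker, had a fold change of 1.41 (q = 0.112). Both passed the filter on low values in this comparison only through their Cd38-/- means. Among 6 tested filament proteins and linkers limma called 0, and 1 had an unadjusted p under 0.05: the smallest q was that of the nuclear lamin gene Lmna (-0.39, q = 0.0853), followed by that of Synm, the synemin gene (0.52, q = 0.277). Among 8 tested ligands, receptors and partners, Ezr rose and Spp1 fell. Ezr encodes ezrin, which links Cd44 to actin, and was 262 ± 71.7 TPM in Cd38+/+ and 428 ± 86.8 TPM in Cd38-/- libraries (SD, log2 fold change 0.72, limma q = 0.0352). Spp1 encodes osteopontin, a ligand of Cd44, and was 35.9 ± 3.79 TPM in Cd38+/+ and 15.5 ± 4.57 TPM in Cd38-/- libraries (SD, log2 fold change -1.20, limma q = 0.0195).

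Of 19 tested upstream signalling genes, 2 (10.5%) were called, again near the share of all genes (8.28%): Il6st rose and Nfkbia fell. Il6st encodes gp130 and was the only one called of 11 tested gp130, JAK and STAT genes, at 58.9 ± 6.995 TPM in Cd38+/+, 117 TPM on average in Cd38+/- and 109 ± 20.9 TPM in Cd38-/- libraries (SD, log2 fold change 0.87 in Cd38-/-, limma q = 0.0171). The median of these 11 genes was -0.19, with fold changes from -0.67 to 0.96, and 4 of them were above 0. By an unadjusted limma p under 0.05, 5 of the 11 passed, in both directions, beside 23.6% of all genes. Nfkbia, the inhibitor and target gene of NF-kappaB, was 257 ± 48.2 TPM in Cd38+/+ and 174 ± 21.7 TPM in Cd38-/- libraries (SD, log2 fold change -0.55, limma q = 0.0362), the only one called of 8 tested NF-kappaB genes. In Cd38+/- against Cd38+/+ limma called 0 genes in each of these lists, with 0 to 3 genes per list at an unadjusted p under 0.05, and likewise between the mutant genotypes, with 0 to 2.

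Of 48 tested markers of other cells and of the response to dissociation, 4 (8.33%) were called in Cd38-/- against Cd38+/+, near the 8.28% of all genes. They were the choroid plexus genes Ttr (log2 fold change 6.02, limma q = 0.0291) and Folr1 (1.14, limma q = 0.0180), 2 of the 6 ependymal and choroid plexus markers tested, the microglial gene P2ry12 (1.98, limma q = 0.0479), 1 of 5 microglial markers tested, and the dissociation-response gene Junb, which fell (-1.03, limma q = 0.0249). Cd38+/+ libraries had Ttr at 223, 0 and 0 TPM, and Cd38-/- libraries ran from 99.6 to 1642 TPM, so the genotypes overlapped, and 2 of the 3 Cd38+/+ libraries entered that fold change at 0. P2ry12 was low throughout, at 0, 0 and 6.23 TPM in Cd38+/+ and 4.06 to 8.71 TPM in Cd38-/- libraries. It passed the filter on low values only through its Cd38-/- mean (6.86 TPM, against 2.08 TPM in Cd38+/+). All 6 ependymal and choroid plexus markers had a fold change above 0, with a median of 0.83 beside 0.15 for all genes. By an unadjusted limma p under 0.05, 5 of these 6 passed, beside 23.6% of all genes. None of 13 astrocyte, 9 endothelial, 9 mural and fibroblast, 5 oligodendrocyte or 5 neuron markers tested was called by limma, with 2, 1, 3, 0 and 1 of them at an unadjusted p under 0.05. The part of these cells in the called reactivity genes was not tested.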

How the data were processed

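RNA of astrocytes isolated from dissected brain regions of male mice was reverse transcribed with a SMART-Seq v4 kit and sequenced in pairs of 100-base reads. According to the methods and the submitters' processing notes, the authors trimmed reads with Trim Galore 0.6.4, mapped them to mm10 with STAR 2.7.1a and estimated expression with RSEM 1.2.28. The annotation is not given in the sources used here. The values were deposited by the authors as TPM with 2 decimals, 1 column per library and no pooling, and the totals of the 12 columns are equal apart from rounding. TPM keeps no read depth.

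Genotypes were taken from the labels. For each of 3 comparisons, log2(TPM + 1) was fitted with limma 3.58.1 (trended eBayes; R 4.3.3) over genes whose mean exceeded 5 TPM in either genotype, as the study filtered. Library weights used statmod 1.5.0. Storey q-values were taken over all genes tested. Calls needed q under 0.05 and a fold change of 1.2 or more; the methods do not name the model behind these thresholds, and the submitters' notes list DESeq2 1.36.0 without a role. Fold changes on this scale understate those of low genes. Exact two-sided permutation tests (scipy 1.17.1, Python 3.11.15) compared mean log2(TPM + 1), doubling the smaller tail. The procedure was tested on simulated data. Positions, lengths, GC content and shared sequence were read from the GENCODE vM21 annotation of GRCm38 (20503 of 20614 genes matched), and promoters from RefSeq on GRCm38.p6. Matches of 100-base windows between transcripts were used as the measure of shared sequence. Figures were drawn with matplotlib 3.10.9.

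The 10 genes and all lists were chosen with earlier results of these data known. Named are the 10 genes and Cd38, from each other list every gene called in any comparison or otherwise the 2 tested genes with the smallest q in Cd38-/- against Cd38+/+, the leading markers of each cell type and those at or near 0, and the 5 genes nearest to Gfap. Marker genes named beside Vim and Gfap for their cell type (Foxj1, Ccdc153, Tmem212, Aldh1l1) were chosen after their values were seen. Hspb1 was also named after its values were seen. The alternatives tried were a pseudocount of 0.1 or of 5, no low-value filter, at least 1 TPM in every library, Benjamini-Hochberg adjustment, a log2 threshold of 1.2, no trend, library quality weights (whose estimation did not converge fully in some fits), 4 scalings, all libraries in 1 fit, a replicate block, and leaving out each library. For microglial markers, 1 gene is not reported here and was left out of the sums and counts.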

Additional observations from a re-analysis of the deposited data

Results flagged for a closer look

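S100a10 in Cd38-/- replicate 3 (133.37 TPM) lay far from the other Cd38-/- libraries, which held values from 90.4 to 105 TPM: its gap to the nearest was 0.6585 of the range, above the critical value of Dixon's test for 6 values. Such a test flags about 1 in 20 groups by chance, and the 10 genes and Cd38 were examined in this genotype. The same library had the highest summed oligodendrocyte markers of all (17802 TPM) and the highest endothelial markers of the Cd38-/- libraries (1425 TPM). Their part in this value was not tested.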

How the results depend on the processing

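The 3 calls in Cd38-/- against Cd38+/+ depended on the procedure. The number called was 0 with a log2 threshold of 1.2, 0 with library quality weights, 1 with libraries centred on astrocyte markers, and 0 to 7 when 1 library was left out. In Cd38+/- against Cd38+/+, 0 were called, but 2 without the low-value filter, 2 with the weights, 3 with all 12 libraries in 1 fit, and 0 to 1 when 1 library was left out. Between the mutant genotypes 0 were called, but 3 with the weights and 1 with astrocyte centring. Over all genes, the 970 calls in Cd38-/- against Cd38+/+ became 2283 without the filter, 1822 in 1 fit, 337 with the log2 threshold, 326 with Benjamini-Hochberg adjustment, 232 with astrocyte centring, 1 with the weights, and 74 to 3119 when 1 library was left out. The 0 calls in Cd38+/- against Cd38+/+ became 663 without the filter, 1464 in 1 fit, 30 with the weights, 9 without the trend, and 0 to 10 when 1 library was left out. The 4 calls between the mutants became 3120 with the weights, 1659 with astrocyte centring, 2 with the log2 threshold, 1 each with median-ratio scaling, the length and GC trends removed and 1 fit, and 0 to 93 when 1 library was left out. The cause was not tested.

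Whether equal replicate numbers pair the samples was not settled. Correlations of same-numbered libraries ran from -0.094 to -0.035 for Cd38-/- with Cd38+/+ and from -0.0037 to 0.044 for Cd38+/- with Cd38+/+. Between the mutants they ran from -0.33 to 0.46. So few same-numbered libraries can neither show nor exclude a pairing. With a replicate block, 0 reactivity genes were called in Cd38-/- against Cd38+/+ (Gfap 1.21, q = 0.115; C4b 0.93, q = 0.318; A2m 0.60, q = 0.375) and 1 in Cd38+/- against Cd38+/+ (Gfap 1.39, q = 0.0143). Over all genes, the replicate block gave 2, 4 and 2 calls for these comparisons and that between the mutants. With the block and the length and GC trends removed, the reactivity calls were 0, 0 and 1, and those over all genes 2, 2 and 279.

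The differences that changed sign had not been called in the comparison concerned. For Cd44 in Cd38+/- against Cd38+/+, the log2 fold change was -0.068 with the weights, -0.036 after median-ratio scaling, -0.32 after quantile normalization, -0.23 with astrocyte centring, -0.22 with the length and GC trends removed, -0.22 with the replicate block added, and -0.070 to 0.25 when 1 library was left out. With the replicate block, Cd44 was 0.15 in Cd38-/- against Cd38+/+ and 0.059 against Cd38+/-, where it was 0.0032 with the trends also removed. Vim in Cd38+/- against Cd38+/+ was 0.036 with the weights and -0.29 to 0.098 when 1 library was left out. For Cd38-/- against Cd38+/-, A2m was 0.078 with the weights and 0.010 with astrocyte centring, C3 was -0.073 with the weights, -0.040 with the trends removed and -0.34 to 0.30 when 1 library was left out, and Serpina3n was 0.25 with astrocyte centring and -0.24 to 0.093 when 1 library was left out.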
